A study of Mus musculus with 12 samples.

Results

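The 2 h transcript response of the wild-type (WT) mouse uterus to estradiol (E2) was described from 6 of the 12 arrays of the series, chosen by their titles: 3 WT mice given E2 and 3 WT mice given saline. All were adult females of at least 10 weeks on a mixed C57bl6/J and 129 background. They had been ovariectomized and rested for 10 to 14 days, so both groups lacked ovarian hormone, and each received 100 ul of saline or of E2, at a dose the labels do not give, before the uterus was taken 2 h later. Each array carried Cy3-labelled cRNA from 500 ng of RNA of a single whole uterus, so epithelium, stroma, muscle, vessels and adhering tissue were measured together. The other 6 arrays hold saline and E2 mice with an altered estrogen receptor alpha (EAAE, described in the series title as unable to bind DNA). They entered the shared estimate of spread and served as a point of comparison.

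The receptor through which the uterus answers E2 is chiefly estrogen receptor alpha, the product of Esr1, a nuclear receptor that raises or lowers transcription when bound by hormone. In the uterus of an ovariectomized rodent, a first wave of transcript changes and swelling of the tissue with fluid comes within hours, and cell division in the epithelium follows later. Genes that answer first include transcription factors, growth factors and genes that act on vessels, and several of them are bound directly by the receptor.

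Levels are log2 intensities relative to the 75th percentile of the array, so 0 stands for that percentile and 1 unit for a 2-fold difference. Changes are E2 minus saline in the same unit. Values of single mice are given in the order of mice 1 to 3. Most genes named below were chosen among called genes with non-overlapping WT groups. Their lack of overlap is therefore no further support. Uterine identity genes (Hoxa10, Hoxa11, Msx1, Wnt7a, Emx2 and others) were well above background on all 3 saline arrays for 13 of 13 genes, as were all 20 epithelial, all 18 stromal and all 14 smooth muscle markers. The share of probes above background ran from 63.98% on E2 mouse 2 to 74.03% on saline mouse 2. Arrays of the same WT group correlated with r of 0.9905 to 0.9935 over all tested genes, and arrays of different WT groups with r of 0.9541 to 0.9626.

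Of 19301 genes tested, 3774 rose (19.6%) and 5753 fell (29.8%), so 49.4% were called at an adjusted p below 0.05 (limma, Benjamini-Hochberg). These shares, which include entries without a RefSeq match, are the background against which the gene groups are read. The median change was 0.68 among the genes that rose and -0.69 among those that fell. Small changes were mostly falls and large ones mostly rises: 1100 genes rose and 1661 fell by at least 2-fold (5.7 and 8.61%), 287 rose and 333 fell by at least 4-fold, and 110 rose and 55 fell by at least 8-fold. At 16-fold or more the numbers were 51 and 8. The median change of all genes was -0.146, and it was -0.013 when arrays were scaled to their median (-0.12 with quantile scaling and -0.121 with another background correction). With that scaling 4492 genes rose and 3949 fell, which moved the higher share of all calls from 39.6 to 53.2%, so the count of small falls depends on the scaling. The 3 E2 mice lay above all 3 saline mice for 24.8% of the genes and below all of them for 39.7%. For 38 genes that rose and 415 that fell the dimmer group was not well above background on any of its arrays. These have no measured fold, and "at least N-fold" sets the brighter group against the mean of the dimmer one. In that mean each array counts at its own signal, or at its dimmest above-background signal where that is higher. The bound can therefore lie close to the fitted fold.

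**Figure D1:**
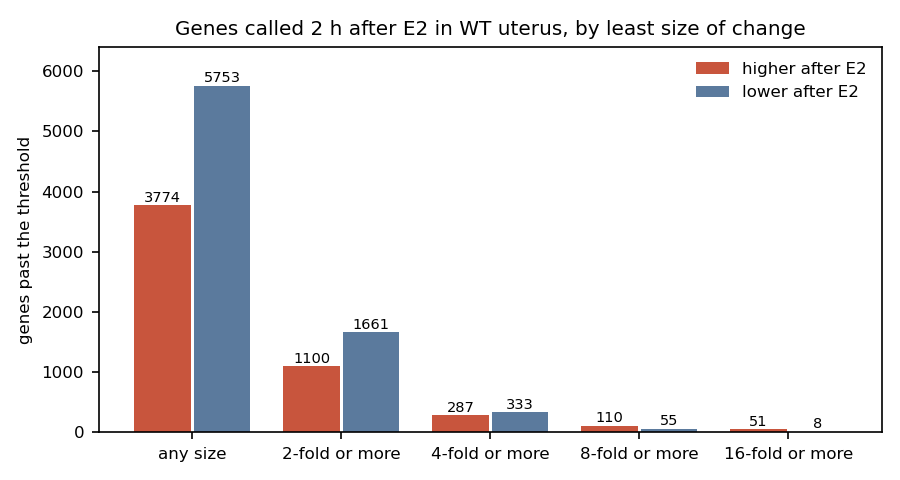
Bars give the number of genes past the threshold (adjusted p below 0.05) that were higher (red) or lower (blue) 2 h after E2 in WT uterus, counted from any size of change up to 16-fold or more (fitted folds, n = 3 mice per group). Falls outnumber rises up to 4-fold (333 against 287), and rises outnumber falls from 8-fold (110 against 55).

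A slide holds several arrays. Slides 1 and 3 each carried mice of both WT groups, and 99.8% of the called genes changed in the same direction on both. These arrays also gave the calls, so the agreement is largely built in and does not replicate them. That holds too for agreement in the counts by size below. Of the 110 genes that rose by 8-fold or more, 95 did so on each slide, and none rose by less than 2-fold on either. Of the 55 genes that fell by 8-fold or more, 23 did so on each slide, and 9 fell by less than 2-fold on slide 3. The difference between slides followed a recognisable set of genes: 23 fallen genes changed by at least 8-fold on slide 1 and by less than 2-fold on slide 3, and 8 of them are adipocyte markers. Fabp4, the fatty acid carrier of fat cells, changed by -6.76 on slide 1 and by -0.66 on slide 3. These genes were chosen by their values and carry no test of their own.

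**Figure D2:**
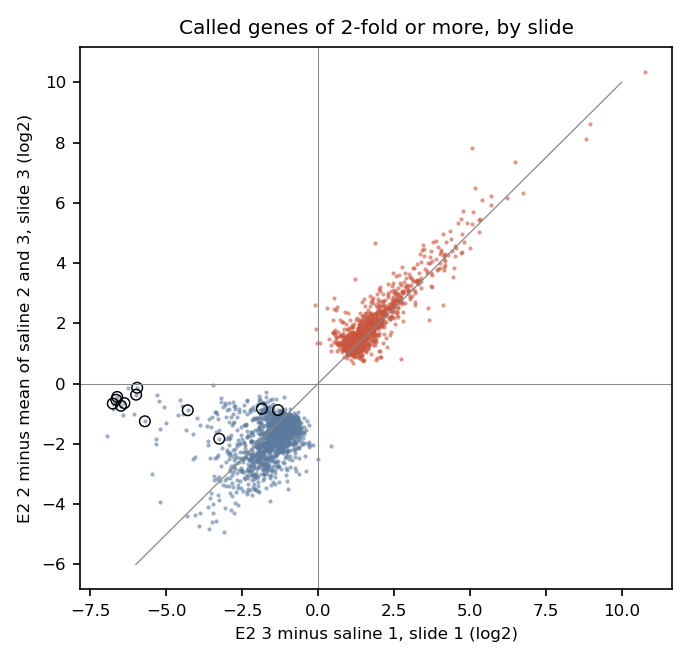
Each point is a gene called with a change of at least 2-fold (1100 red, higher; 1661 blue, lower), placed by E2 mouse 3 minus saline mouse 1 on slide 1 (x, log2) and by E2 mouse 2 minus the mean of saline mice 2 and 3 on slide 3 (y, log2). Rises follow the diagonal, on arrays that also gave the calls. Black rings mark the 12 adipocyte markers among the falls, 8 of which fell by at least 8-fold on slide 1 and by less than 2-fold on slide 3.

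Secreted signals and their receptors showed some of the largest rises. The level of Pgf, the placental growth factor that binds VEGF receptor 1, was -2.32, -2.48 and -2.16 with saline and 2.81, 3.15 and 3.02 with E2, so the groups were far apart, and it rose by 5.31 (SE 0.24, adjusted p = 1.53e-07). Hbegf, a membrane-anchored ligand of the EGF receptor, rose by 3.40 (SE 0.09, adjusted p = 1.18e-08), whereas Egf (-1.27, above background on 2 of 3 E2 arrays) and betacellulin, Btc (at least 2.1-fold lower), fell. Several receptors rose. Tnfrsf12a, the receptor of the cytokine TWEAK, stood at 0.22, 0.09 and -0.45 with saline and 3.78, 4.28 and 3.72 with E2 and rose by 3.97 (SE 0.19, adjusted p = 1.90e-07). The neurotrophin receptor Ngfr (3.92, SE 0.16, 3.05 on another probe), the interleukin receptor Il17ra (3.61, SE 0.16) and the ephrin receptor Epha2 (2.26, SE 0.10) rose too. Hrh1, a histamine receptor through which small vessels become leaky, was -1.95, -1.42 and -1.79 with saline and 2.77, 2.75 and 2.79 with E2 and rose by 4.49 (SE 0.14, adjusted p = 2.37e-08).

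Other growth factor genes fell. Hgf, the hepatocyte growth factor that mesenchyme sends to epithelium, was -0.35, 0.07 and -0.05 with saline and -3.26, -3.27 and -3.19 with E2. It fell by 3.13 (SE 0.15, adjusted p = 1.76e-07). Another probe above background on all 6 arrays gave a change of -0.16, so the probes disagree. Mst1r, the receptor of the related macrophage-stimulating protein, fell (-1.52, SE 0.15). Among FGF ligands, receptors and partners 3 of 26 tested members rose and 8 fell (30.8%, near the 29.8% of all genes). The Flrt adhesion proteins, which bind FGF receptors and guide cells, split: Flrt1 rose (2.51, SE 0.18), while Flrt2 (-2.16, SE 0.18, -1.03 on another probe) and Flrt3 fell. Flrt3 was -0.23, -0.13 and -0.22 with saline and -3.60, -3.79 and -3.12 with E2, a change of -3.31 (SE 0.16, adjusted p = 2.45e-07). In the insulin-like growth factor list 3 of 21 members rose and 8 fell (5 with the array median scaling or without E2 mouse 3). Igf1 (1.22, SE 0.27, 3.00 and 1.43 on its other probes) and the stanniocalcin Stc2 (1.24, SE 0.19) rose, and Stc1 fell (-1.68, SE 0.27, -1.0 on another probe).

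Feedback genes of signalling pathways differed by pathway. In the list of Jak-Stat feedback genes and gp130 family receptors, 15 of 35 tested members rose and 3 fell (median 0.14). Socs1, which blocks Janus kinases after cytokine signals, stood at 0.47, 0.62 and 0.64 with saline and 4.58, 4.77 and 4.62 with E2 and rose by 4.08 (SE 0.12, adjusted p = 2.37e-08), and Socs3 rose by 3.79 (SE 0.25). The kinase Tyk2 (-0.61) and the Stat inhibitor Pias3 (-0.77, but -0.36 and not called on another probe) fell. Among MAP kinase phosphatases and Ras feedback genes 20 of 54 rose and 14 fell, with the Ras inhibitor Spry4 at least 13.6-fold higher and the EGF receptor inhibitor Errfi1 at 3.66 (SE 0.14). The phosphatase Dusp23 (-1.20) and the kinase Map3k8 (-1.32) were among the falls.

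Genes that tune G-protein receptors fell more often than they rose, as all genes did. In the list of Rgs proteins and receptor regulators 6 of 31 members rose (19.4%, against 19.6% of all genes). In the same list 14 fell (45.2%, against 29.8%), or 11 with the array median scaling, and the median was -0.38. Rgs2, which shortens signals of Gq-coupled receptors and favours relaxation of smooth muscle, was 5.48, 5.72 and 5.75 with saline and 3.08, 3.03 and 3.39 with E2. It fell by 2.49 (SE 0.14, adjusted p = 4.41e-07, -3.28 on another probe). Rgs4 fell too (-2.42, SE 0.24). The membrane GTPase Rem2, a regulator of calcium channels, rose by 4.11 (SE 0.64) from a level above background on 2 of 3 saline arrays. Genes that shape the actin skeleton through small GTPases were divided in those named here. Rnd1, which opposes RhoA and loosens the actin skeleton, was -1.71, -2.11 and -1.70 with saline and 2.85, 2.79 and 2.51 with E2 and rose by 4.55 (SE 0.15, adjusted p = 2.62e-08) (1.66 on another probe). The Cdc42 effector Cdc42ep1 rose by 2.08 (SE 0.15), while its relative Cdc42ep3 (-1.31, SE 0.13) and the exchange factor Arhgef3 (-1.22, SE 0.13) fell.

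**Figure D3:**
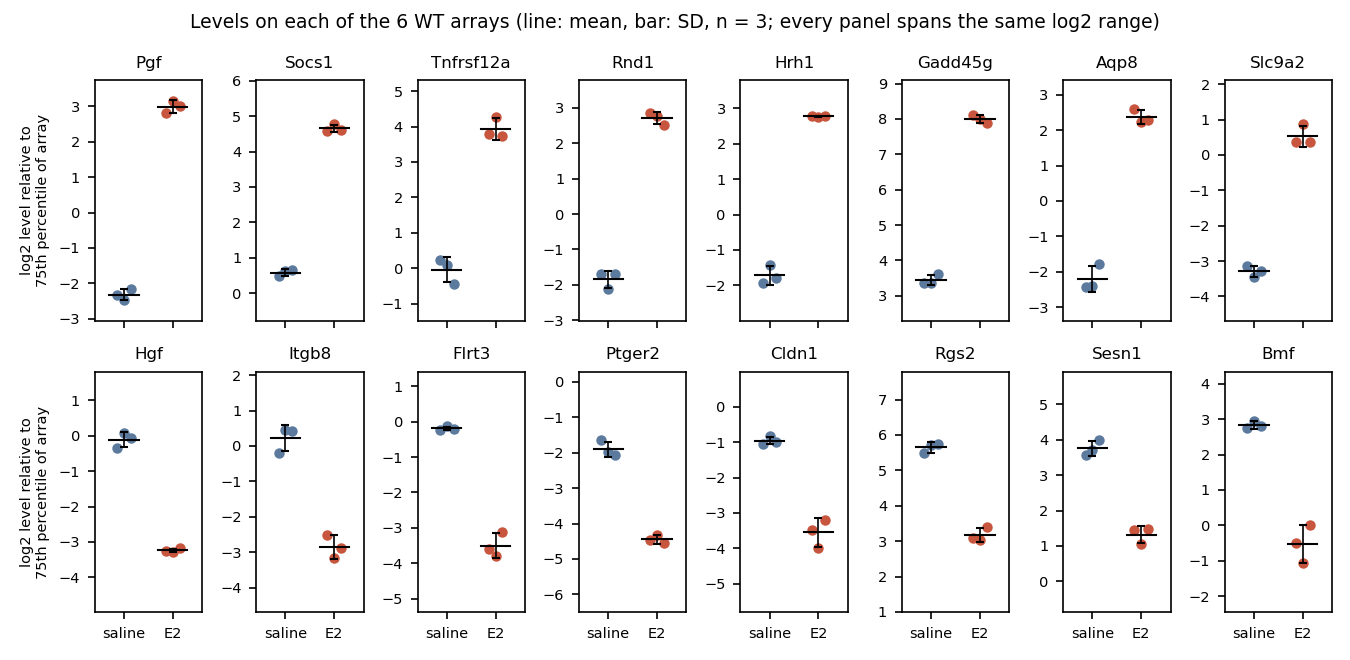
Levels of 16 genes (log2, relative to the 75th percentile of the array) in the 3 saline mice (blue) and the 3 E2 mice (red) of the WT group. Lines are means and bars SDs (n = 3), and every panel spans the same log2 range. In each panel all E2 mice lie on one side of all saline mice, above them for the 8 genes of the upper row and below them for the 8 of the lower row. Lack of overlap was a condition for choosing genes from the lists.

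Transcription factors changed family by family. Early response factors rose in 28 of 31 tested members, with none lower by limma's test (1 at an unadjusted p below 0.05) and a median of 2.22. Among helix-loop-helix factors and Id proteins 18 of 45 rose and 15 fell. Twist2, a repressor of mesenchymal differentiation, rose by 2.90 (SE 0.12), and the Notch-responsive repressors Hey1 (1.84, SE 0.10) and Heyl (1.82, SE 0.15) rose, against Hes5 at -0.95. The related clock repressors Bhlhe40 and Bhlhe41 went opposite ways, at 2.09 (SE 0.09) and -1.40 (SE 0.29). Msc, another helix-loop-helix repressor, fell from a mean of -1.49 to -5.34 (above background on 2 of 3 E2 arrays).

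Sox factors also split. Sox9, a factor of glandular epithelium, was -1.19, -1.22 and -1.16 with saline and 0.93, 1.38 and 0.82 with E2 and rose by 2.24 (SE 0.28, adjusted p = 8.65e-05). Sox4 was 2.61, 2.88 and 3.21 with saline and 0.43, 0.27 and 0.50 with E2, and fell by 2.50 (SE 0.15, adjusted p = 7.12e-07). Neither gene had overlapping groups, a condition for naming them. Sox17, which marks vessels and uterine epithelium, fell (-0.84, SE 0.13). Sox11 fell (-2.38) on the probe that was above background, and its call was lost with the mean of its probes. Of the forkhead factors Foxs1 (2.83, SE 0.17), Foxn2 (1.69, SE 0.15) and Foxl2 (0.98, SE 0.18) rose and the gland factor Foxa2 fell (-1.17, SE 0.29). Of the Kruppel-like and Sp factors Klf4 (2.12, SE 0.09) and Klf16 (1.99, SE 0.10) rose and Klf15 (-2.20, SE 0.25) and Sp5 (-2.40, SE 0.26) fell, and Ets factors divided between Elf3 (2.16, SE 0.13) and Ets2 (1.02, SE 0.12), which rose, and Ets1 (-1.33, SE 0.11, -0.49 on another probe) and Etv5 (-1.24, SE 0.16), which fell.

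Developmental patterning factors fell broadly. In the list of homeobox and limb or stroma patterning factors, 43 of 69 tested members fell and 2 rose (62.3% lower, against 29.8% of all genes), with a median of -0.61. That median was -0.48 with the array median scaling, under which 34 fell and 4 rose. Stroma markers, which share Hoxa11 and Nr2f2 with this list, moved with it (12 of 18 lower, 66.7%, median -0.63), and their part in the falls was not tested. Hoxa5 was -2.85, -2.56 and -2.78 with saline and -4.78, -5.53 and -4.36 with E2 and fell by 2.16 (SE 0.26, adjusted p = 7.38e-05). The orphan receptor Nr2f2, a stromal factor, changed by -1.56 on its brightest probe and by -1.72 and -3.45 on the others. Prrx2, a mesenchymal homeobox factor, was the exception: it stood at 0.46, 0.45 and 0.50 with saline and 3.92, 4.47 and 4.10 with E2 and rose by 3.69 (SE 0.16, adjusted p = 1.26e-07). The other riser, Tead3 (0.33), lost its call with 5 different arrays left out.

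Zinc finger genes named Zfp, a large family that includes many repressors, fell in 161 of 313 tested members (51.4%) and rose in 46 (14.7%), with a median of -0.41. With the array median scaling 126 fell and 55 rose. Most of these falls were small, and 50 reached 2-fold. Zfp503 fell by 2.38 (SE 0.14, adjusted p = 6.09e-07) and Zfp750, an epidermal differentiation factor, was at least 3.9-fold lower. Zfp469, linked to collagen formation, rose by 4.33 (SE 0.15, adjusted p = 4.45e-08).

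Among nuclear receptors, which bind steroid and other small hormones, 7 of 39 rose and 11 fell. Pparg, the lipid sensor, was 0.12, -1.26 and -0.94 with saline and 2.04, 2.37 and 1.32 with E2 and rose by 2.60 (SE 0.59, adjusted p = 0.00445). Thra, a thyroid hormone receptor, fell by 1.61 (SE 0.14, adjusted p = 1.08e-05, -0.92 on another probe). The progesterone receptor Pgr rose by 1.94 (SE 0.24). Esr1 was at -0.24 (adjusted p = 0.0544) and 0.14 on another probe and was not called, and the membrane estrogen receptor Gper1 fell (-1.55, SE 0.13). Of the receptor cofactors 15 of 35 rose, among them Greb1 (3.78, SE 0.44) and the corepressor Nrip1 (2.63, SE 0.10), and 6 fell (3 with the array median scaling or without saline mouse 2, E2 mouse 1 or E2 mouse 2). Cited2, which competes with other factors for coactivators, was 1.12, 1.16 and 1.68 with saline and -0.82, -1.05 and -1.09 with E2 and fell by 2.31 (SE 0.14, adjusted p = 8.01e-07), with changes of -2.15 to -2.36 on its other probes.

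Chromatin enzymes moved less. Histone methylation enzymes rose in 15 of 61 and fell in 6 (10 with quantile scaling), and acetylation and remodelling genes rose in 16 of 61 and fell in 14, shares of rises near the background. In the methylation list Jmjd6 (1.95, SE 0.08, 0.58 and 1.23 on its other probes) and the demethylase Kdm7a (1.45, SE 0.18) led the rises, and in the other list Arid5a (1.32, SE 0.18). Arid5b fell by 1.73 (SE 0.09, adjusted p = 4.41e-07), with -0.84 and -1.65 on the other probes above background on all 6 arrays.

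Most factors that assemble the ribosome's subunits rose, and most ribosomal proteins were not called. Ribosomal RNA is made by RNA polymerase I, processed in the nucleolus by the small subunit processome and box C/D and H/ACA particles, and joined with ribosomal proteins into the 40S and 60S subunits. Factors of 60S assembly rose in 50 of 56 tested members (89.3%) and fell in 1, with a median of 0.86. Small subunit processome and 40S factors rose in 45 of 56 (80.4%), with none lower by limma's test (0 at an unadjusted p below 0.05 either) and a median of 0.66. Nucleolar RNA-protein particles rose in 17 of 27 and fell in 3 (median 0.59). For each list the range with any 1 array left out was narrow, at 48 to 51, 42 to 46 and 15 to 18 risen members. Rrp12, a factor in subunit export, was -2.77, -2.90 and -3.04 with saline and -1.02, -0.67 and -0.92 with E2 and rose by 2.03 (SE 0.14, adjusted p = 1.78e-06). Bysl, of the 40S pathway, was 0.71, 0.58 and 0.62 with saline and 2.42, 2.67 and 2.40 with E2 and rose by 1.86 (SE 0.09, adjusted p = 2.32e-07) (2.54 on another probe). Rrs1 (2.02, SE 0.12), Utp6 (1.83, SE 0.08, 0.75 on another probe), the C/D particle protein Nop58 (1.72, SE 0.13) and the nucleolar scaffold Nolc1 (1.96, SE 0.07) rose in like manner, and Nsa2 was the 60S member that fell (-0.35, a call lost with the array median scaling).

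The promoters of these genes are shown because the genes rose together. RefSeq (GRCm38.p6) held promoter windows, from 250 bases before to 50 after the start, for 12115 of the 19301 tested genes, and for 93 genes of the 40S and 60S lists. An E-box, CACGTG, the sequence bound by Myc-Max and related helix-loop-helix factors, was present in 24 of these 93 windows (25.8%) and in 9.67% of the windows of all tested genes. It is its own reverse complement, so both strands were covered. Of the 24 genes 20 rose, a share near that of the lists as a whole. The stretches around the E-box, in capitals, of the 4 with the largest rises are given 5′ to 3′ along the strand of the gene.
Nop2 (chr6:125131783-125131868, plus strand): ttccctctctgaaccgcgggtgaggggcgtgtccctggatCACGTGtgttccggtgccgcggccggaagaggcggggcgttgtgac
Nmd3 (chr3:69721901-69721986, plus strand): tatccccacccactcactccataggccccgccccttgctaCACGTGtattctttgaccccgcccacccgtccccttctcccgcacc
Utp14b (chr1:78658337-78658422, plus strand): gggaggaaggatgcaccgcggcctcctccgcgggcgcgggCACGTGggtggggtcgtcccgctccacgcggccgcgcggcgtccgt
Utp18 (chr11:93885767-93885826, minus strand): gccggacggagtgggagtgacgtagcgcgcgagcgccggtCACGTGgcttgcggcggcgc
The changes of Nop2, Nmd3, Utp14b and Utp18 were 1.62, 1.40, 1.31 and 1.28. A Myc transcript rise of 1.30 (SE 0.12) accompanied them (1.33 and 1.21 on its other probes). A match is a description of the sequence, and binding was not measured. The median number of CG pairs in the window was 20 for genes that rose by at least 4-fold, 23 for genes that rose by 2-fold to 4-fold, 18 for genes not called, 14 for genes that fell by 2-fold to 4-fold and 11 for genes that fell by at least 4-fold. A full estrogen response element, the half-site GGTCA followed after 3 bases by its reverse complement, occurred in 0 of the 193 windows of genes that rose by at least 4-fold and in 3 of the 12115 windows in all, and a single arm of it, GGTCA on either strand, in 48.2% of the former and 38.4% of all. The site of Ets factors, CCGGAAGT on either strand, was in 27 of the 93 ribosome assembly windows (29.0%) and in 7.16% of all.

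Cytosolic ribosomal proteins themselves rose in 2 of 85 members and fell in 14, with a median of -0.18, close to the median of all genes. None of them fell with the array median scaling, and leaving out any of the 6 WT arrays except saline mouse 2 left between 2 and 8. Mitochondrial ribosomal proteins rose in 22 of 78 and fell in 15 (3 with the array median scaling, 5 to 7 without saline mouse 1, saline mouse 3, E2 mouse 1 or E2 mouse 2). Subunits and factors of RNA polymerases I and III rose in 19 of 42 and fell in 7 (3 with that scaling), with Polr3d at 1.80 (SE 0.09) and the polymerase I subunit Cd3eap at 1.55 (SE 0.14).

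Steps between gene and protein rose in large numbers of small changes. DEAD and DEAH box RNA helicases rose in 33 of 53 members and fell in 6 (3 with the array median scaling), with a median of 0.41, led by the nucleolar helicase Ddx21 (1.85, SE 0.11). Splicing factors rose in 50 of 102 and fell in 5 (11 with quantile scaling, 3 without saline mouse 2), with a median of 0.29, and 6 of the rises reached 2-fold, among them Srsf3 (1.34, SE 0.19, but -0.12 on another probe) and U2af1 (1.30, SE 0.34). Nuclear pore proteins and transport receptors rose in 35 of 59 and fell in 3 (median 0.35), with the importins Kpna2 (1.72, SE 0.19) and Kpna1 (1.25, SE 0.10). Of the 3 that fell, the exportins Xpo1 (-0.42) and Xpo7 (-0.30) were not called with the array median scaling. Other probes gave -0.83 for Xpo1 and -3.11 for Xpo7, above background on 1 and 0 of the 3 E2 arrays. Translation initiation factors rose in 28 of 59 and fell in 6 (2 with the array median scaling, 10 with quantile scaling), with the eIF2 subunit Eif2s2 (1.30, SE 0.11, 2.24 on another probe) and Eif1a (1.21, SE 0.10) highest. The brake on cap-dependent initiation, Eif4ebp1, fell (-0.97, SE 0.15). Aminoacyl-tRNA synthetases rose in 16 of 40 and fell in 9 (5 with the array median scaling). Aars (1.12, SE 0.11, 2.50 and 2.74 on 2 of its other probes) and the complex member Eef1e1 (1.42, SE 0.14) rose and the mitochondrial Pars2 (-1.18) fell. Genes of mRNA decay rose in 19 of 51 and fell in 8 (3 with that scaling). The rises included the antiproliferative deadenylation adaptor Tob1 (2.70, SE 0.11), while Btg1 fell (-1.10, SE 0.10).

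**Figure D4:**
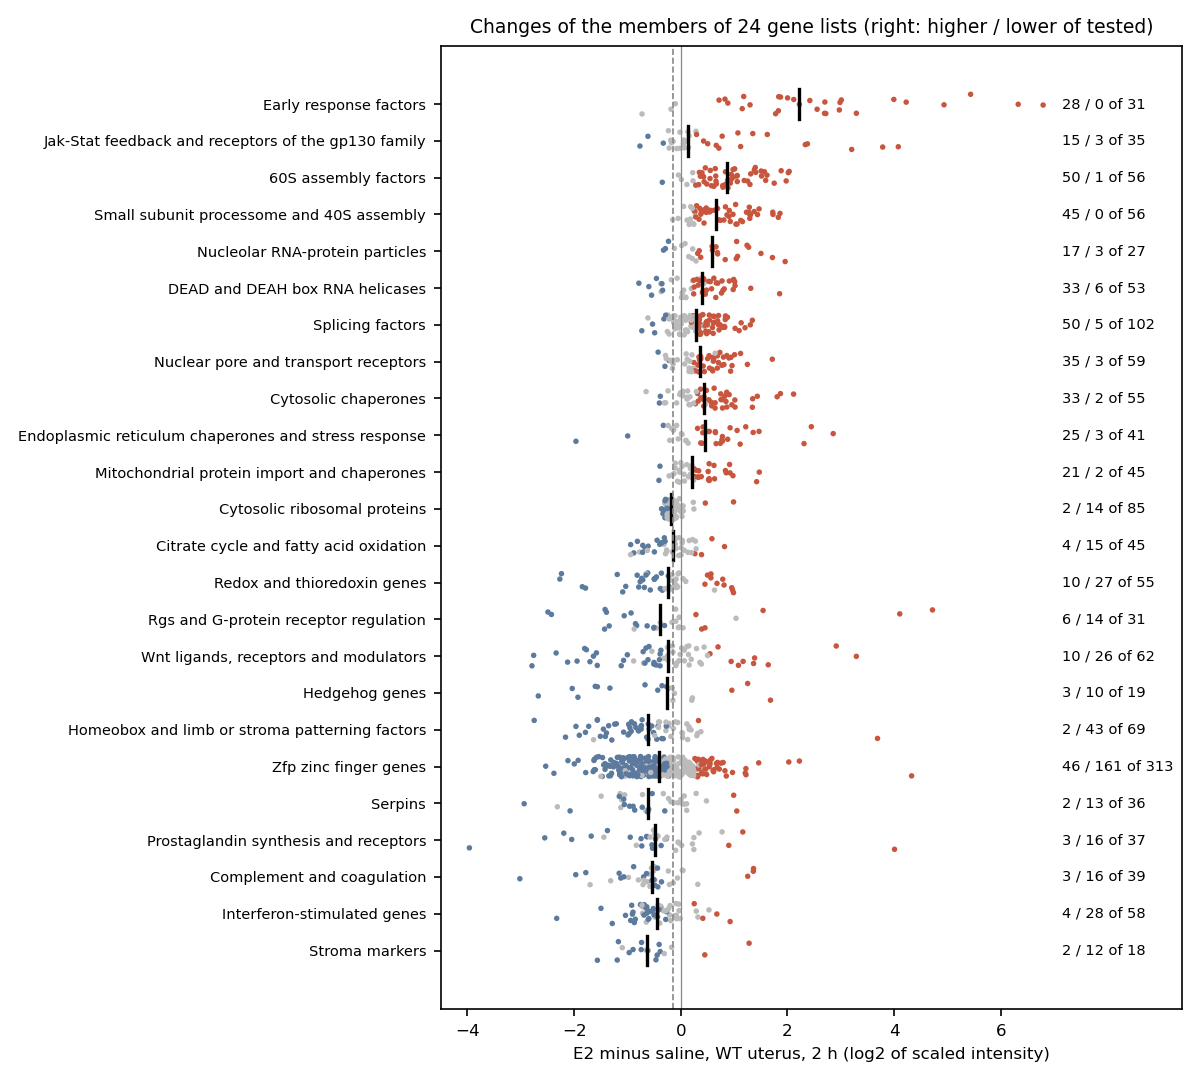
Each dot is a tested member of the list named at the left, placed by its change (E2 minus saline, WT, log2), red where called higher, blue where called lower and grey where not called. Black ticks are list medians, the dashed line is the median of all genes (-0.146) and the figures at the right count members higher and lower of those tested. Ribosome assembly, RNA handling and chaperone lists lie to the right of the dashed line, and patterning, Zfp, serpin, prostaglandin, complement and interferon lists to its left.

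Protein folding genes rose with them. Cytosolic chaperones rose in 33 of 55 and fell in 2 (median 0.43), with Hsph1 (1.87, SE 0.20) and the small heat shock protein Hspb7, which was -1.05, -1.30 and -1.65 with saline and 0.75, 1.11 and 0.48 with E2 and rose by 2.12 (SE 0.33, adjusted p = 0.000448). Mitochondrial import genes rose in 21 of 45 and fell in 2, with the small Tim chaperones Timm8a1 (1.47, SE 0.08) and Timm10 (1.42, SE 0.10). In the list of endoplasmic reticulum chaperones and stress genes 25 of 41 rose and 3 fell (median 0.45). Chac1, which breaks down glutathione and is switched on by the factor Atf4, was -1.69, -2.45 and -2.08 with saline and 0.71, 1.03 and 0.61 with E2 and rose by 2.86 (SE 0.20, adjusted p = 2.47e-06). Ppp1r15a, which restarts translation by removing the phosphate from eIF2, rose by 2.45 (SE 0.11), and its opponent, the kinase Eif2ak3, fell by 0.99 (SE 0.09, adjusted p = 1.16e-05). Nupr1, another stress-responsive factor, fell by 1.97 (SE 0.21, adjusted p = 3.37e-05).

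The composite site of C/EBP and ATF factors, TGATGCAA on either strand, occurred in 3 of the 37 promoter windows of the endoplasmic reticulum list (8.11%) and in 0.652% of all tested windows. The stretches of the list's members that hold it and rose are shown, with the site in capitals.
Chac1 (chr2:119351009-119351096, plus strand): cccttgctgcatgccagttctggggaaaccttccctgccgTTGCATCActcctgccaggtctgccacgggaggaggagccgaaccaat
Herpud1 (chr8:94386277-94386364, plus strand): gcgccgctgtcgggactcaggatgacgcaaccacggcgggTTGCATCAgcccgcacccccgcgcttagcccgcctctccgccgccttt
Herpud1, which helps remove misfolded proteins from the endoplasmic reticulum, changed by 0.78. Among early response factors the CArG box, the site of serum response factor, was found in 2 of 22 windows (9.09%) and in 1.37% of all, and both genes, shown with the boxes in capitals, rose.
Zfp36 (chr7:28379237-28379326, minus strand): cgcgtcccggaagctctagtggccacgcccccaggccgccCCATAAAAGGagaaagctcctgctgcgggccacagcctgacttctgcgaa
Srf (chr17:46556175-46556284, minus strand): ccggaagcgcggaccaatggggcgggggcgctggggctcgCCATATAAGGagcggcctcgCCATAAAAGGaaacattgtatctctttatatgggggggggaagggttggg
The changes were 2.23 for Zfp36, which destabilises AU-rich mRNAs, and 1.78 for Srf, the factor that binds the box. The Srf stretch holds the box in 2 copies.

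Enzymes that supply building blocks rose at single steps. Ctps, which makes CTP, was 2.21, 2.06 and 2.04 with saline and 4.15, 4.41 and 4.12 with E2 and rose by 2.12 (SE 0.11, adjusted p = 3.16e-07). Spermidine synthase, Srm (1.89, SE 0.09), the purine salvage enzyme Pnp (1.87, SE 0.16), the mitochondrial folate enzyme Mthfd2 (1.52, SE 0.24) and the S-adenosylmethionine synthase Mat2a (1.18, SE 0.07) also rose. Their lists were mixed: purine and pyrimidine synthesis had 12 of 45 higher and 11 lower (7 lower with the array median scaling or without E2 mouse 2), and serine and one-carbon metabolism 4 of 29 higher and 8 lower (4 lower with that scaling). Cystathionine gamma-lyase, Cth (-1.64, SE 0.18), which makes cysteine, fell. Amino acid transport was divided between the leucine carriers Slc7a5 (2.69, SE 0.16) and Slc43a2 (1.89, SE 0.21), which rose, and the lysosomal Slc36a1 (-1.02), which fell.

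Lists of energy metabolism had more falls than rises, as all genes did (29.8 against 19.6%), the glucose and respiratory lists not with the array median scaling. The share that fell was 35.8% in the glucose list and 33.3% in the citrate cycle list. Among respiratory chain subunits it was 18.3%, below that of all genes. Glucose transport, glycolysis and pentose phosphate genes had 12 of 53 higher and 19 lower (10 lower with the array median scaling), of which 5 and 3 reached 2-fold. The citrate cycle and fatty acid oxidation list had 4 of 45 higher and 15 lower, all changes below 2-fold, and 8 lower with the array median scaling. Respiratory chain subunits had 8 of 82 higher and 15 lower (5 with that scaling, 30 with quantile scaling and 9 without E2 mouse 2). Cycs, the electron carrier cytochrome c, rose by 1.45 (SE 0.12, adjusted p = 5.68e-06), and Cox7a1, a muscle-type oxidase subunit, fell by 1.27 (SE 0.12, adjusted p = 1.22e-05). The lactate carrier Slc16a1 was 1.29, 0.56 and 1.09 with saline and 3.42, 3.68 and 3.09 with E2 and rose by 2.41 (SE 0.27, adjusted p = 4.25e-05), and Pdk4, which shuts glucose carbon out of the citrate cycle, rose by 2.21 (SE 0.20). In the cholesterol list 11 of 35 rose and 14 fell. The ubiquitin ligase Mylip fell by 1.75 (SE 0.12, adjusted p = 2.08e-06).

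Genes that move water and ions changed in both directions. Aqp8, a water channel, was -2.42, -2.42 and -1.79 with saline and 2.61, 2.23 and 2.30 with E2 and rose by 4.59 (SE 0.23, adjusted p = 2.32e-07). Slc9a2, a sodium and proton exchanger of epithelia, was -3.14, -3.44 and -3.28 with saline and 0.36, 0.88 and 0.35 with E2 and rose by 3.82 (SE 0.15, adjusted p = 7.78e-08). Every E2 mouse lay more than 3 units above every saline mouse for both genes. Aqp11 (-1.51, SE 0.13) and the calcium channel Trpv6 (-1.68, SE 0.18) fell. In the list of water channels and epithelial ion transport 11 of 50 rose and 13 fell (7 with the array median scaling). Of the potassium channel subunits Kcns3 (2.56, SE 0.19) and Kcnk5 (2.40, SE 0.19) rose, and Kcnj8, the pore of the vascular KATP channel, was 4.90, 5.17 and 5.45 with saline and 2.72, 2.30 and 3.12 with E2 and fell by 2.46 (SE 0.21, adjusted p = 8.49e-06).

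Genes of cell contacts changed in both directions, with 11 of 58 claudins, cadherins and connexins higher and 14 lower (9 with the array median scaling). Nectin1, an adherens junction protein, rose by 2.90 (SE 0.12, adjusted p = 8.58e-08). Cldn1, a tight junction protein, was -1.04, -0.84 and -0.99 with saline and -3.47, -3.98 and -3.19 with E2 and fell by 2.59 (SE 0.17, adjusted p = 1.46e-06). Integrins split likewise. The vitronectin receptor subunit Itgb3 (1.96, SE 0.20, 0.69 on another probe) and the fibronectin receptor subunit Itga5 (1.46, SE 0.15) rose, and Itgb8, which activates latent TGF-beta, was -0.19, 0.45 and 0.42 with saline and -2.52, -3.18 and -2.88 with E2 and fell by 3.08 (SE 0.19, adjusted p = 1.05e-06, -2.09 on another probe). Actin and contractile genes rose in 25 of 74 and fell in 6 (2 with the array median scaling or without E2 mouse 3, 3 without saline mouse 2, saline mouse 3 or E2 mouse 2), with the membrane linker Ezr (1.43, SE 0.10) and cytoplasmic Actg1 (1.20, SE 0.08) highest.

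Matrix genes showed the same mixture. Collagen chains rose in 7 of 38 and fell in 5 (9 without EAAE E2 mouse 1 or 2, 10 with the WT arrays alone), with Col8a2 at 2.54 (SE 0.22), Col6a3 at 1.28 (SE 0.16) and the fibril collagen Col3a1 at -1.19 (SE 0.24). P4ha2, which hydroxylates collagen, was 1.76, 1.67 and 1.77 with saline and 3.89, 4.35 and 4.15 with E2 and rose by 2.40 (SE 0.15, adjusted p = 1.02e-06), while the crosslinking enzyme Lox fell (-1.20, SE 0.20). Matricellular genes of the CCN family diverged: Ccn1 rose by 4.30 (SE 0.24, adjusted p = 5.17e-07) and Ccn3 (-1.43, SE 0.32) and Ccn4 (-1.32, SE 0.18) fell. In the list of Adamts and matrix metalloproteases with inhibitors 9 of 48 rose and 16 fell, with the Adamts-like Adamtsl2 at 2.95 (SE 0.36) and Mmp28 at -1.74 (SE 0.25). Hyaluronan synthases were opposed as well, Has1 rising by 5.60 (SE 0.35) while Has2 fell (-2.24, SE 0.20) and Has3 was at least 2.8-fold lower. Serpins, inhibitors of serine proteases, fell in 13 of 36 (36.1%) and rose in 2, with a median of -0.61.

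Vessel-acting genes were evenly split, with 21 of 63 higher and 21 lower (12 lower with slide and position in the fit). Besides Pgf and Vegfa (2.99, SE 0.13), the C-type natriuretic peptide Nppc rose (3.30, SE 0.38, above background on 2 of 3 saline arrays). Gucy1a1, a subunit of the receptor for nitric oxide, was 0.86, 0.60 and 0.98 with saline and -1.11, -1.74 and -1.38 with E2 and fell by 2.22 (SE 0.19, adjusted p = 9.03e-06), with -2.13 on another probe above background on all 6 arrays. The apelin receptor Aplnr fell by 1.98 (SE 0.19, adjusted p = 1.84e-05, -0.38 on another probe, above background on 1 of 3 E2 arrays), and so did endothelial Cldn5 (-1.49, SE 0.12), against endoglin, Eng, which rose (1.46, SE 0.13).

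Of the developmental pathways the Wnt and Hedgehog lists fell more often than they rose, as all genes did (29.8 against 19.6%). The Notch, TGF-beta and Hippo lists rose more often than they fell. Wnt ligands, receptors and modulators rose in 10 of 62 and fell in 26 (41.9%), or 12 and 21 with the array median scaling. Hedgehog genes rose in 3 of 19 and fell in 10 (52.6%), or 4 and 7 with that scaling. Rspo3, a ligand that amplifies Wnt signals, was -1.29, -0.99 and -0.92 with saline and -3.74, -4.48 and -3.34 with E2 and fell by 2.79 (SE 0.24, adjusted p = 9.15e-06), and the receptor Fzd1 fell by 2.76 (SE 0.17, adjusted p = 1.01e-06). Lgr6, a receptor for R-spondins, rose by 2.92 (SE 0.20, adjusted p = 1.89e-06). Ptch1, the Hedgehog receptor and a common readout of that pathway, was -1.71, -0.85 and -1.66 with saline and -4.09, -4.72 and -3.43 with E2 and fell by 2.67 (SE 0.37, adjusted p = 0.000183). The ligand Ihh stood at 1.68 (adjusted p = 0.0293), a call lost with any single WT array left out (adjusted p up to 0.0839) and kept with any EAAE array left out (down to 0.000247) and in the other alternatives (0.00027 to 0.0481), with 2.27 on its other probe, and Dhh rose by 1.25 (SE 0.16). Notch genes rose in 12 of 29 and fell in 6, the ligand Jag1 among the falls (-1.30, SE 0.16), and TGF-beta, activin and BMP genes rose in 15 of 59 and fell in 12. In the Hippo list, where 8 of 29 rose and 5 fell (2 with the array median scaling, 3 without saline mouse 3), the transcription factor Tead4 rose by 2.10 (SE 0.15) and its cofactor Vgll3 fell by 1.91 (SE 0.12, adjusted p = 1.15e-06).

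Prostaglandin genes fell in 16 of 37 (43.2%) and rose in 3, with a median of -0.48. Ptger2, a receptor for E-type prostaglandins, was -1.65, -1.99 and -2.05 with saline and -4.48, -4.31 and -4.55 with E2 and fell by 2.55 (SE 0.12, adjusted p = 2.14e-07), while the synthase Ptges rose by 4.01 (SE 0.16) and the uptake carrier Slco2a1 by 1.16 (SE 0.18). In hormone metabolism the retinol esterifying enzyme Lrat was at least 6.5-fold higher and Dio3, which inactivates thyroid hormone, rose by 1.99 (SE 0.16). Cyp1b1, which hydroxylates E2, fell by 2.94 (SE 0.27, adjusted p = 1.18e-05), and Hsd17b1, which makes E2 from estrone, by 2.17 (SE 0.14, adjusted p = 1.30e-06). Both were above background on 1 of 3 E2 arrays.

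Interferon and complement lists fell in a larger share than all genes (29.8%), and interleukins in a share near it. Chemokine and NF-kB lists were evenly divided. Interferon-stimulated genes fell in 28 of 58 (48.3%) and rose in 4, with a median of -0.44 (21 lower and 5 higher with the array median scaling). The antiviral genes Rsad2 (-2.33, SE 0.25) and Ifit3 (-1.50, SE 0.18) fell, and Usp18, which limits interferon signalling, rose by 0.93 (SE 0.19). Complement and coagulation genes fell in 16 of 39 and rose in 3 (10 lower with the array median scaling, 10 without E2 mouse 3). Genes of antigen presentation fell in 8 of 36 (5 without E2 mouse 2), a share near the background, with none higher by limma's test (0 at an unadjusted p below 0.05). Interleukins and their receptors fell in 20 of 65 (30.8%) and rose in 8 (12.3%, against 19.6% of all genes). The NF-kB list rose in 10 of 33 and fell in 10. Chemokine genes rose in 5 of 43 and fell in 5 (2 with the array median scaling, 2 or 3 without saline mouse 1, saline mouse 3, E2 mouse 2 or E2 mouse 3, 8 without EAAE E2 mouse 2 and 11 with the WT arrays alone). Among them the scavenger receptor Ackr3 (2.61, SE 0.22) and Ccl12 (2.08, SE 0.23) rose, and the receptor Cxcr4 was -1.39, -1.38 and -1.54 with saline and -3.74, -3.96 and -3.89 with E2 and fell by 2.42 (SE 0.15, adjusted p = 8.65e-07). The epithelial cytokine Tslp was at least 4.0-fold lower. The mean level of macrophage markers was 1.86, 1.25 and 1.29 with saline, highest in saline mouse 1, and 0.91, 0.78 and 0.62 with E2. Of these 15 markers 3 fell (20.0%, against 29.8% of all genes) and 0 rose by limma's test (4 and 0 at an unadjusted p below 0.05). Their part in the immune results was not tested.

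Mitosis genes were seldom called, and DNA replication genes changed by less than 2-fold. Of 56 mitosis and spindle genes 2 rose, Mad2l1 (4.25, SE 0.15) and Mad2l2 (1.0, SE 0.09), and 5 fell (2 without saline mouse 1, saline mouse 2 or E2 mouse 2, and up to 10 with another array left out). DNA replication genes rose in 10 of 59 (6 without saline mouse 3) and fell in 14 (7 with the array median scaling), none by 2-fold, with Pcna at 0.56 (SE 0.09). G1 cyclins, kinases and inhibitors rose in 8 of 40 and fell in 15, with 3 in each direction reaching 2-fold. Damage and arrest genes included larger changes. Gadd45g, an inducible growth arrest gene, was 3.36, 3.36 and 3.62 with saline and 8.10, 8.0 and 7.89 with E2 and rose by 4.55 (SE 0.15, adjusted p = 2.66e-08), and the polo kinase Plk2 rose by 4.11 (SE 0.13). Sesn1, a stress sensor that restrains mTORC1, was 3.57, 3.71 and 3.99 with saline and 1.45, 1.05 and 1.47 with E2 and fell by 2.44 (SE 0.16, adjusted p = 1.52e-06). Ccng2 (-1.44, SE 0.29) and the kinase inhibitor Cdkn2c (-1.24, SE 0.24) fell, against Cdkn1a, which rose by 2.98 (SE 0.18).

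Of the Bcl2 family and caspases 20 of 46 fell (43.5%) and 12 rose. Bmf, which triggers death when cells detach or lose survival signals, was 2.75, 2.95 and 2.81 with saline and -0.51, -1.07 and -0.00 with E2 and fell by 3.36 (SE 0.27, adjusted p = 5.02e-06, -0.42 on another probe above background), and Bad, another death promoter, fell by 1.26 (SE 0.14, adjusted p = 5.80e-05, -0.51 on another probe). Redox genes fell in 27 of 55 (15 with the array median scaling) and rose in 10. They included the thioredoxin inhibitor Txnip (-2.24, SE 0.15), whose relative Arrdc4 rose (0.97, SE 0.10), and the glutathione transferase Gsta3, which was 0.41, -0.77 and -0.23 with saline and -2.43, -2.34 and -2.62 with E2 and fell by 2.27 (SE 0.43, adjusted p = 0.00143). Autophagy and lysosome genes fell in 20 of 52 (10 with the array median scaling, 13 without E2 mouse 3) and rose in 5 (3 without E2 mouse 2), all by less than 2-fold.

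Outside the lists the largest rises included 7 kallikreins of the Klk1b cluster (near-identical copies, so that a probe may read several of them), Lrtm2 (4.84, SE 0.31), Csrnp3 (5.12, SE 0.40), the GABA and taurine carrier Slc6a13 (4.61, SE 0.19), the muscle synapse adaptor Dok7 (4.40, SE 0.17) and the myosin kinase Mylk2 (4.33, SE 0.32). Slc6a13 was -2.42, -2.65 and -2.13 with saline and 2.27, 2.39 and 1.97 with E2, with the groups more than 4 units apart. Falls included Ndp, the frizzled ligand norrin, which was 0.98, 1.49 and 1.44 with saline and -1.74, -2.20 and -1.37 with E2 and fell by 3.07 (SE 0.23, adjusted p = 3.70e-06), and genes whose E2 arrays were all below background, such as the neuropeptide receptor Npy2r (at least 2.6-fold lower) and the ubiquitin ligase Rnf186 (at least 5.0-fold lower).

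Markers of cell types moved as follows. In whole tissue, fewer cells of a type and less RNA per cell cannot be told apart. Stroma markers fell in 12 of 18 and rose in 2 (median -0.63), and their mean level was 3.62, 3.60 and 3.47 with saline and 3.03, 3.03 and 2.94 with E2, without overlap. Epithelial markers rose in 6 of 20 and fell in 1, and smooth muscle markers rose in 1 of 14 and fell in 1. Endothelial markers fell in 6 of 15 and rose in 1 (3 lower with the array median scaling). Nerve and Schwann cell markers fell in 6 of 8 and rose in 1, Ngfr (3.92, SE 0.16), their mean being -1.11, -1.24 and -0.96 with saline and -1.24, -1.37 and -1.28 with E2, with overlapping groups. Of 14 lymphocyte markers none was called by limma in either direction (0 at an unadjusted p below 0.05), and 5 were lower without E2 mouse 1.

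Adipocyte markers fell in 13 of 15 tested genes, with none higher by limma's test (0 at an unadjusted p below 0.05) and a median of -3.02 (-2.35 with Lep at its bound). Their mean level was 2.75, 0.73 and 1.18 with saline and -1.21, 0.32 and -1.62 with E2, so E2 mouse 2 lay just below the lowest saline mouse, and saline mouse 1 stood well above the other saline mice. Fabp4 was 6.10, 3.28 and 3.80 with saline and 0.39, 2.88 and -0.66 with E2, and changed by -3.53 (SE 1.05, adjusted p = 0.0177), without overlap but with an SD of 1.50 with saline and 1.82 with E2. The count of falls was 5 without saline mouse 1, 4 without E2 mouse 1 or E2 mouse 3, 8 with slide as a block and 3 with slide and position. In EAAE mice Fabp4 ranged from 3.78 to 6.56 over 6 arrays. The lipid handling list, which shares genes with these markers, fell in 16 of 45 (8 without saline mouse 1 or E2 mouse 3, 9 without E2 mouse 1). Other genes with the same split between slides, chosen after their values were seen, were the serine carrier Slc7a10 (-2.85), the succinate receptor Sucnr1 (-2.96) and Apoc1 (-2.25). The mice differed in the level of these transcripts within each group, and the part of adhering fat in these falls was not tested.

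**Figure D5:**
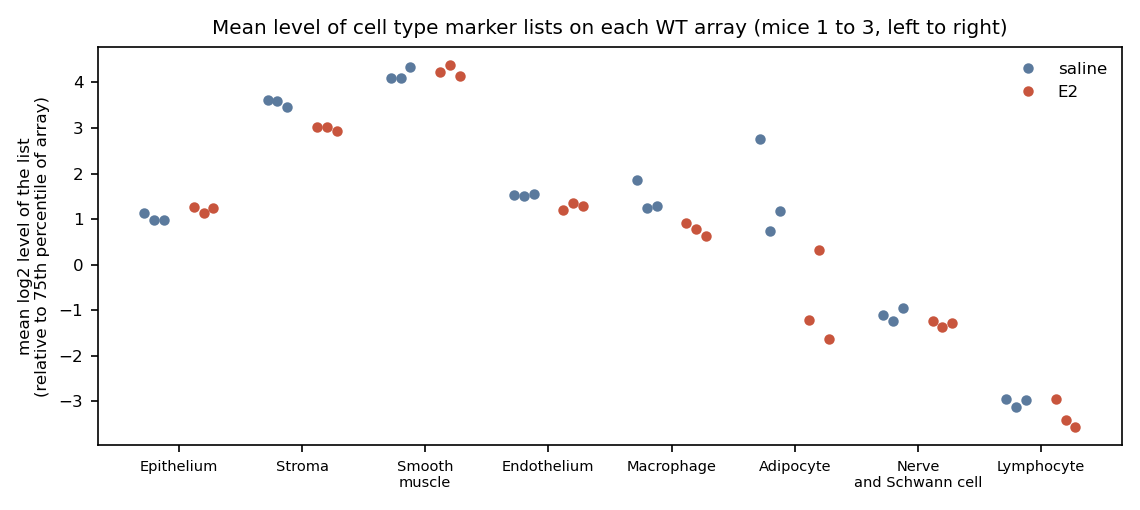
Mean log2 level (relative to the 75th percentile of the array) of 8 marker lists on each WT array, saline mice 1 to 3 in blue and E2 mice 1 to 3 in red, from left to right. Stroma means fall from 3.47 to 3.62 with saline to 2.94 to 3.03 with E2, and adipocyte means spread from 0.73 to 2.75 and from -1.62 to 0.32.

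Set beside EAAE mice under the same treatment, the WT response was far larger. In EAAE uterus 277 of the 19301 genes (1.44%) were called, 132 higher and 145 lower. The responses of WT and EAAE differed for 7191 genes (37.3%, limma, adjusted over all genes), and among the 9527 genes called in WT for 6577 (69.0%). Early response factors had a median of -0.04 in EAAE against 2.22 in WT. The 60S assembly list had a median of 0.13 against 0.86, and the homeobox and patterning list 0.00 against -0.61. For Pgf the change was 0.40 in EAAE, for Hgf 0.92, for Rspo3 0.25 and for Bmf -0.63.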

How the data were processed

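Transcripts were measured on 12 single-colour Agilent arrays, 1 mouse each. The authors' scans were read with Agilent Feature Extraction 9.5.3.1, per the file headers, which removed background and spatial trends. The processed signal that the authors deposited is an intensity on a linear scale with no scaling from array to array, and the series table repeats those intensity values.

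Here log2 of each intensity was taken, the 75th percentile of its array subtracted, outlier and control spots left out and repeat spots joined by their mean. Testing took in 29017 of 41174 probes, those well above background in every mouse of 1 or more of the 4 groups. The probe with the highest mean stood for each of 19301 genes, 6733 of which had several. Names came through RefSeq (GRCm38.p6) accessions, symbols or synonyms where these matched. For 8437 of the 41174 probes none did, and the name in the array files was kept. Of the 19301 genes tested, 153 carry only a probe identifier. The E2 effect in WT was fitted with limma 3.58.1 (R 4.3.3, lmFit and eBayes) on the 12 arrays together. Tests were 2-sided, p-values were adjusted by Benjamini-Hochberg across all genes, and the threshold was 0.05. On simulated data the fit recovered 73% of 2-fold and 91% of 4-fold changes among 200 changed genes of 19301, with 10 false calls. That simulation had few changed genes and no scaling step. Its rates need not hold for these data, where 49.4% of genes were called. Arrays hold no counts, so 3 mice per group limit the precision, and nothing in the labels says how mice were spread over litters or days.

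Members were described by 97 lists written from general knowledge (82 of functions, 15 of cell types or identity), and the lists were chosen with earlier results of these data known. Many genes stand in several lists. Named genes were, in each list, up to 2 largest rises and 2 largest falls that passed the threshold, with WT groups that did not overlap and all arrays of the higher group well above background. To these were added the 15 largest rises and falls outside the lists, 12 reference genes (Esr1, Esr2, Gper1, Fos, Ramp3, Greb1, Pgr, Wnt4, Igf1, Vegfa, Myc, Cdkn1a) and the called members of lists with 5 or fewer. Genes named for their promoters, and Slc7a10, Sucnr1 and Apoc1, were chosen after their values were seen. Esr2 did not pass the filter on dim probes. Some named genes are not reported here.

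Promoter windows of RefSeq (300 bases, 1 per gene) were searched on both strands for 11 motifs: CACGTG, CCGGAAGT, TGATGCAA, the estrogen response element half-site GGTCA, the full element (GGTCA and, 3 bases on, its reverse complement), the CArG box, TGACGTCA (the CRE, in 2.91% of tested windows), TGANTCA (AP-1, 5.44%), TATAAA (8.73%), GGGCGG (59.9%) and the heat shock element (0.396%). The half-site lies within the full element.

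Alternatives were scaling by the array median or by quantiles, normexp background correction, the series table, no filter or a filter on WT arrays, the mean of probes, WT arrays alone, a replicate block, slide as a block without and with position, and the fit without each array in turn. Tables and plots were made in Python 3.11.15 (matplotlib 3.10.9, pandas 2.3.3, numpy 2.4.6).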

Additional observations from a re-analysis of the deposited data

Results flagged for a closer look

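The E2 response differed between WT and EAAE mice for 6577 of the 9527 genes called in WT (69.0%), by limma's test of the difference between the responses, adjusted over all 19301 genes. Over all genes 7191 (37.3%) differed. Of the genes called in both genotypes, 42 were higher and 45 lower in both, while 47 were higher in WT and lower in EAAE and 61 lower in WT and higher in EAAE.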

How the results depend on the processing

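Rises numbered 3591 to 4492 and falls 3949 to 6300 under the alternatives that kept all WT arrays, except slide with position, and none of the 379 named genes reversed in any alternative. With slide and position in the fit, 2576 genes rose and 3676 fell. Position was uneven over the groups, as every EAAE E2 array lay at position 4. Leaving out each array in turn gave 3162 to 3941 rises, 4523 to 5990 falls and 5189 to 6479 genes that differed between the genotypes. The array median gave 4492 rises and 3949 falls. With the replicate block there were 3679 rises, 5672 falls and 6428 genes that differed between WT and EAAE. The mice of a number did not deviate together (r of -0.11, -0.12 and -0.04 for numbers 1 to 3), so the numbers do not pair them, and E2 mouse 1 had no WT saline mouse on its slide. Without the EAAE arrays the difference between genotypes has no value. Of the 378 named genes that were called, 318 kept the call under every alternative and with every array left out, and 52 lost it with slide and position, among them Fabp4, Nsa2, Tead3, Foxa2, Xpo1 and Hes5. Of 143 list counts of 5 or more, 67 moved by more than 1.5 times with slide and position, 35 with the array median, 16 without E2 mouse 2 and at most 12 in each other alternative. For 94 of the 97 lists the median moved by at most 0.04 when genes without a measured fold were set at their bound. Signal over background leaves 38 risen and 415 fallen genes with a bound in place of a fold.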
